A study of Mus musculus with 30 samples.

Results

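Transcripts of 8 genes that tie telomeres to the nuclear envelope in meiosis were followed in germ cells enriched from testes of young mice. The members were chosen by symbol (Terb1, Terb2, Majin, Sun1, Sun2, Ccdc155, Spdya and Cdk2), and their Ensembl identifiers picked out 8 of the 65534 rows held of the deposited expression table. Ccdc155 is the gene now named Kash5. The study compared transcription in spermatocytes between genotypes of Prdm9, which encodes the histone methyltransferase that places the double-strand breaks of meiotic recombination in mice. It has 30 libraries, each from 1 male, at 8, 12 and 16 days postpartum (dpp), on a C57BL/6J background with under 10% 129S1/SvImJ. The homozygous mutants (Prdm9-/-) number 5 at each age. The non-mutants number 2 Prdm9+/- and 3 Prdm9+/+ at 8 dpp, 4 Prdm9+/- and 1 Prdm9+/+ at 12 dpp, and 3 Prdm9+/- and 2 Prdm9+/+ at 16 dpp. The animals come from 14 litters, and every litter holds mutants and non-mutants of 1 age. Which bases of Prdm9 the mutant allele lacks is not given in the sources used here.

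In meiotic prophase every chromosome end attaches to the inner nuclear membrane, and cytoskeletal motors then drag the ends along the envelope so that homologues can find each other. In mice TERB1, TERB2 and MAJIN form the complex that binds telomeric DNA and anchors it in the membrane, and the SUN proteins with KASH5 carry force across both membranes from dynein outside the nucleus. CDK2, with its non-cyclin activator Speedy A (the product of Spdya), sits at the telomeres and is needed for their attachment.

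Prdm9 itself served as the check of the labels. At 16 dpp it had 6.89 to 12.77 TPM (a transcript abundance scaled by transcript length and by the library total) in mutants, against 19.71 to 34.41 TPM in non-mutants. At 12 dpp it had 6.34 to 8.16 TPM in 4 of 5 mutants, against 15.99 to 23.34 TPM in 4 of 5 non-mutants, but litter 13 went the other way. There the library labelled Prdm9-/- replicate 5 had 19.23 TPM and the library labelled Prdm9+/- replicate 4 had 9.16 TPM, so the results at 12 dpp were also computed without that litter. At 8 dpp Prdm9 did not separate the classes, with 4.77 to 8.98 TPM in mutants against 1.82 to 6.10 TPM in non-mutants, and checks nothing at that age. The germ cell markers Ddx4 and Dazl were over 1 TPM in every library, and so were all 8 Sertoli cell markers, whose summed level lay between 1112 and 1823 TPM: every library held somatic RNA beside that of germ cells.

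The 8 genes are protein coding and lie on 8 chromosomes of mm10. Terb1 (ENSMUSG00000052616) is at chr8:104446719-104509910 on the minus strand, Terb2 (ENSMUSG00000027229) at chr2:122186272-122206397 on the plus strand and Majin (ENSMUSG00000024786) at chr19:6184388-6224225 on the plus strand. Sun1 (ENSMUSG00000036817) is at chr5:139200637-139249840 on the plus strand, Sun2 (ENSMUSG00000042524) at chr15:79724070-79742536 on the minus strand and Ccdc155 (ENSMUSG00000038292) at chr7:45183624-45204892 on the minus strand. Spdya (ENSMUSG00000052525) is at chr17:71552061-71589533 on the plus strand and Cdk2 (ENSMUSG00000025358) at chr10:128697939-128705031 on the minus strand. Spdya is the member whose reads are least certain: it shares 402 exonic bases with Trmt61b on the opposite strand (mean 5.71 TPM) and 250 with the pseudogene Mettl4-ps1 on its own strand (mean 0.693 TPM), and whether strand was used in counting is not stated. Cdk2 shares 34 exonic bases with Pmel (mean 5.17 TPM), Sun2 shares 147 with Gm16575 (mean 0.01 TPM) and Sun1 shares 302 with 4930520M14Rik (not analysed here), all on the opposite strand.

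RefSeq's promoter windows (GRCm38.p6, 250 bases before to 50 after a start site) matched 6 of the 8 members with 7 promoters; Terb2 and Majin had no entry. A set of 3 is shown here because their genes carry the results that follow: Ccdc155 and Spdya climbed at both steps of age and had the largest differences at 16 dpp, and Terb1 climbed with them to 12 dpp. Capitals mark matches, on either strand, to the letters TAACNG (MYB type), CCTCAG (STRA8 type, CTGAGG on the other strand) or TGACGT (cAMP response element type). The first window is chr7:45204843-45205142 on the minus strand, the next is chr17:71551811-71552110 on the plus strand and the last is chr8:104509838-104510137 on the minus strand.
Ccdc155 (Kash5): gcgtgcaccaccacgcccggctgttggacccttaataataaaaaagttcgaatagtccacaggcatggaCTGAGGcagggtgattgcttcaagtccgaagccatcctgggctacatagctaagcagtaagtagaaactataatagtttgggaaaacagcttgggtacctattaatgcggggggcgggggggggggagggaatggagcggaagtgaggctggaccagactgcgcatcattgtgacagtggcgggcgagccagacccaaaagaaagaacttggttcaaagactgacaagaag
Spdya: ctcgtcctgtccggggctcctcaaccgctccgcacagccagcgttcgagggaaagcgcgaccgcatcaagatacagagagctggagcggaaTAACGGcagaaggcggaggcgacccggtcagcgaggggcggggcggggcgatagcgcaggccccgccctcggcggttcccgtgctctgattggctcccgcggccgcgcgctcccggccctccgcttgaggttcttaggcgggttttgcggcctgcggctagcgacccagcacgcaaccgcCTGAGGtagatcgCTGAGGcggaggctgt
Terb1: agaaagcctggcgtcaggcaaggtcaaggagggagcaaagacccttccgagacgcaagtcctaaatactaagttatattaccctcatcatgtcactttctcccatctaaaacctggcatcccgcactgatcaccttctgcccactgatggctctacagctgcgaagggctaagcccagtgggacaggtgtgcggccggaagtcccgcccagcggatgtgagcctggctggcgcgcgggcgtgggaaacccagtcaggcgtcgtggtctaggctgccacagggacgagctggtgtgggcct
The Ccdc155 window holds 1 match to CCTCAG, at -181 from the start. The Spdya window holds 1 match to TAACNG, at -159, and 2 to CCTCAG just after the start. None of the 3 motifs occurs in the Terb1 or Sun2 window. Of the other members, Sun1 has 1 CCTCAG match at its first start and 1 TAACNG match at its second, and Cdk2 has 1 CCTCAG and 1 TGACGT match. These short motifs are common: TAACNG is in 23.3% of all 32851 promoter windows, CCTCAG in 26.8% and TGACGT in 7.51%. No matches overlap each other in the printed windows, and a match is only a match of letters.

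The members fell into 2 sets by level. Cdk2, Sun1 and Sun2, which many cell types express, averaged between 47.1 and 108.5 TPM in mutants and between 50.8 and 110.2 TPM in non-mutants already at 8 dpp. The other 5 averaged between 0.784 and 2.65 TPM in mutants and between 0.762 and 1.93 TPM in non-mutants at that age. No library of the upper set fell into the range of the lower set at any age. Cdk2 had the highest mean throughout and Terb2 the lowest. Among the lower 5, neighbours in the order overlapped in their ranges at every age, apart from Majin and Terb2 in mutants at 16 dpp. Sun1 stood above Sun2 without overlap at 8 dpp, and the ranges of the 2 SUN genes overlapped at 12 and 16 dpp.

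**Figure D1:**
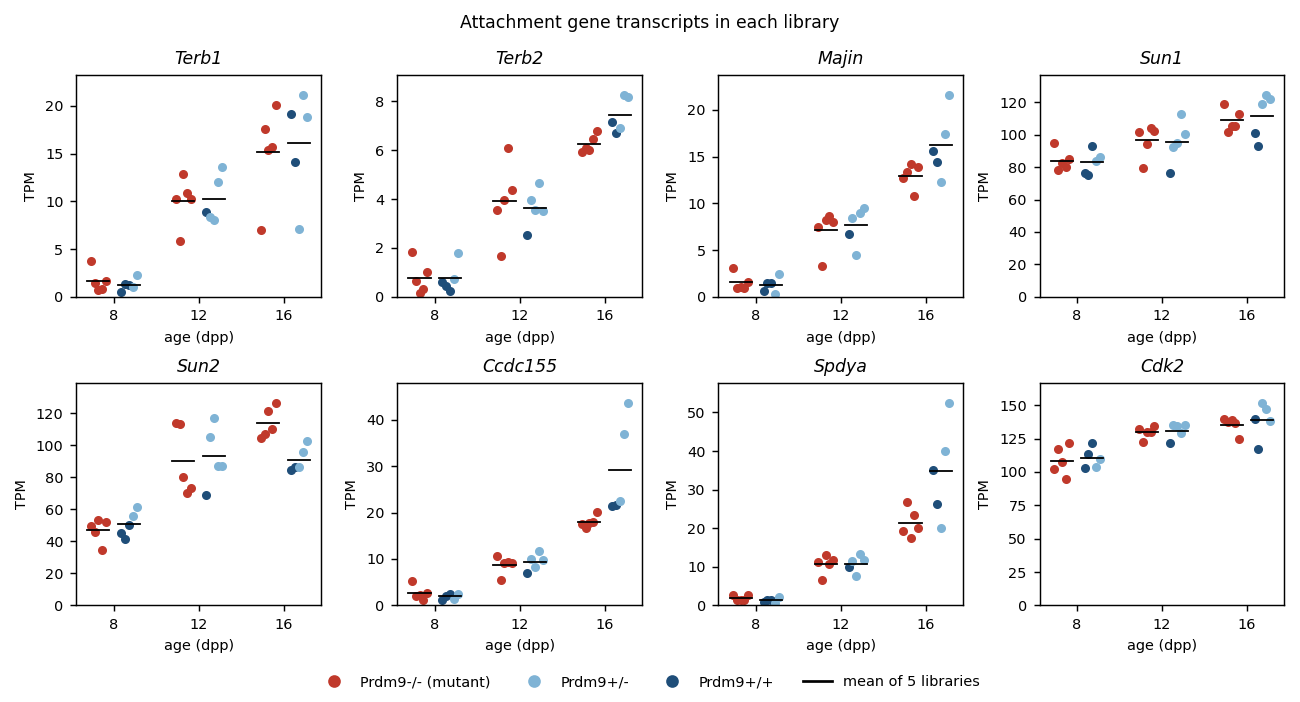
Transcript abundance (TPM, y axis, from 0) of each attachment gene against age in days postpartum (x axis). Points are libraries (red Prdm9-/-, light blue Prdm9+/-, dark blue Prdm9+/+), black lines the means of 5 libraries; Ccdc155 and Spdya climb at both steps, Sun2 climbs to 12 dpp, and Sun1 and Cdk2 stay within 75.3 to 151.27 TPM.

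The 3 genes of the telomere-binding complex were low at 8 dpp and rose by 12 dpp. Terb1, the subunit that contacts the shelterin protein TRF1, had 3.75, 1.47, 0.69, 0.80 and 1.62 TPM at 8 dpp, 10.28, 5.81, 12.87, 10.83 and 10.26 TPM at 12 dpp, and 7.0, 17.60, 15.36, 15.69 and 20.07 TPM at 16 dpp in mutants. In non-mutants it had 0.54, 1.33, 1.23, 1.0 and 2.25 TPM, then 8.90, 8.36, 8.05, 12.05 and 13.63 TPM, then 19.14, 14.15, 7.05, 21.18 and 18.81 TPM. Every 12 dpp library lay above every 8 dpp library, while 16 and 12 dpp overlapped because 1 library of each class stayed near 7 TPM. On the log2(TPM + 1) scale Terb1 rose between 8 and 12 dpp by 2.11 in mutants (SE 0.287, limma adjusted p = 2.15e-06) and by 2.32 in non-mutants (SE 0.287, adjusted p = 6.07e-07). Its later step was 0.52 in mutants (adjusted p = 0.261) and 0.55 in non-mutants (adjusted p = 0.174); without Prdm9+/- replicate 1 of 16 dpp the non-mutant step was 0.80 and passed (adjusted p = 0.0323).

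Majin, the transmembrane subunit, averaged 1.52 ± 0.93 TPM at 8 dpp, 7.13 ± 2.21 TPM at 12 dpp and 13 ± 1.37 TPM at 16 dpp in mutants, and 1.26 ± 0.851, 7.63 ± 2.06 and 16.3 ± 3.53 TPM in non-mutants (SD, n = 5 each). None of these ranges overlapped between ages within a class. Majin rose at the first step by 1.70 in mutants (adjusted p = 6.44e-06) and 1.98 in non-mutants (adjusted p = 7.76e-07). The second step was 0.83 in mutants (adjusted p = 0.026) and 1.02 in non-mutants (adjusted p = 0.00373). The mutant call rests on single libraries: its adjusted p was 0.105 without Prdm9-/- replicate 2 of 12 dpp (log2 step 0.61), and 0.0506, 0.0573 and 0.0606 without Prdm9-/- replicates 2, 3 and 5 of 16 dpp.

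Terb2, which bridges TERB1 and MAJIN, had the lowest level of the 8. It averaged 0.784 ± 0.663, 3.93 ± 1.59 and 6.25 ± 0.356 TPM at 8, 12 and 16 dpp in mutants, and 0.762 ± 0.612, 3.64 ± 0.77 and 7.45 ± 0.732 TPM in non-mutants (SD, n = 5 each). It rose at the first step in both classes, by 1.47 in mutants (adjusted p = 1.18e-05) and 1.44 in non-mutants (adjusted p = 1.62e-05). At the second step it rose by 0.88 in non-mutants (adjusted p = 0.0055), a call lost with a pseudocount of 0.1 (adjusted p = 0.0674), with the Prdm9+/+ libraries alone (adjusted p = 0.214) and without Prdm9+/- replicates 2 and 3 of 16 dpp together (adjusted p = 0.0635). The mutant value was 0.62 (adjusted p = 0.069), and this passed without Prdm9-/- replicate 4 of 12 dpp (0.77, adjusted p = 0.0309), Prdm9-/- replicate 1 of 8 dpp (adjusted p = 0.0433) or Prdm9+/- replicate 2 of 8 dpp (adjusted p = 0.0472).

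The 2 SUN genes encode inner nuclear membrane proteins; in mice SUN1 is the main partner of meiotic telomeres. Sun1 moved little, with means of 84.1 ± 6.6, 96.5 ± 10.2 and 109.0 ± 6.88 TPM at 8, 12 and 16 dpp in mutants and 83.0 ± 7.41, 95.3 ± 13.4 and 111.9 ± 14.1 TPM in non-mutants. Neither of its steps passed the test in either class. The first was 0.19 in mutants (95% interval -0.001 to 0.39, adjusted p = 0.129) and 0.19 in non-mutants (95% interval -0.004 to 0.38, adjusted p = 0.128), and the second 0.18 in mutants (adjusted p = 0.239) and 0.23 in non-mutants (adjusted p = 0.0806). Single libraries decide these calls: the first step passed without Prdm9-/- replicate 2 of 12 dpp in mutants (0.26, adjusted p = 0.0415) and without the Prdm9+/+ library of 12 dpp in non-mutants (0.27, adjusted p = 0.0286). The second step in non-mutants passed without Prdm9+/- replicate 3 of 12 dpp (adjusted p = 0.0321) or Prdm9+/+ replicate 2 of 16 dpp (adjusted p = 0.0307), and with the Prdm9+/- libraries alone as non-mutants (0.29, adjusted p = 0.0402).

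Sun2 had 49.72, 45.73, 53.61, 34.36 and 52.17 TPM at 8 dpp and 113.90, 113.45, 80.47, 70.22 and 73.26 TPM at 12 dpp in mutants, and 45.01, 41.30, 50.54, 55.63 and 61.48 TPM at 8 dpp and 68.65, 105.03, 117.13, 87.04 and 87.26 TPM at 12 dpp in non-mutants. All 12 dpp libraries lay above all 8 dpp libraries of their class. The rise was 0.91 in mutants (SE 0.143, adjusted p = 1.73e-05) and 0.85 in non-mutants (SE 0.143, adjusted p = 3.99e-05). From then on the non-mutant mean was flat, at a step of -0.01 (95% interval -0.30 to 0.28, adjusted p = 0.97). In mutants the second step was 0.36 (95% interval 0.07 to 0.65, adjusted p = 0.101), and it passed without Prdm9-/- replicate 1 or 2 of 12 dpp (0.45 each, adjusted p = 0.0437 and 0.0486). Macrophage markers were read beside Sun2. The litter mates of litters 1 and 9, the highest 12 dpp libraries in Sun2, also had the highest summed level of 5 macrophage and leukocyte markers, 62.2 and 78.6 TPM in mutants and 56.3 and 68.8 TPM in non-mutants. The other 12 dpp libraries had 31.5 to 34.1 TPM in mutants and 31.4 to 46.8 TPM in non-mutants. At 16 dpp the non-mutant highest in Sun2, at 102.48 TPM, had the lowest marker sum of its class, 42.7 TPM. Among 16 dpp mutants the lowest in Sun2, at 104.44 TPM, also had the lowest marker sum, 66.7 TPM. Of the 5 markers, 0 rose by 12 dpp in mutants and 3 in non-mutants, and 3 rose from there to 16 dpp in mutants (median 0.56) and 0 in non-mutants (median 0.15). Without litter 13 both counts of 3 were 2. The part of these markers in the result was not tested.

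Ccdc155, whose product spans the outer membrane and recruits dynein, climbed at both steps. In mutants it had 5.16, 2.13, 2.23, 1.17 and 2.58 TPM at 8 dpp, 10.75, 5.39, 9.11, 9.40 and 9.20 TPM at 12 dpp, and 17.50, 16.66, 17.82, 17.89 and 20.08 TPM at 16 dpp. In non-mutants it had 1.16, 2.05, 2.55, 1.38 and 2.51 TPM, then 6.88, 10.03, 8.19, 11.74 and 9.71 TPM, then 21.36, 21.69, 22.51, 36.84 and 43.48 TPM. No 2 ages overlapped in either class. The first step was 1.48 in mutants (SE 0.222, adjusted p = 9.55e-06) and 1.82 in non-mutants (SE 0.222, adjusted p = 4.87e-07). The second was 0.99 in mutants (SE 0.222, adjusted p = 0.00327) and 1.51 in non-mutants (SE 0.222, adjusted p = 1.16e-05).

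Spdya had the largest fold with age. In mutants it had 2.60, 1.49, 1.39, 1.52 and 2.64 TPM at 8 dpp, 11.24, 6.58, 13.02, 10.71 and 11.86 TPM at 12 dpp, and 19.28, 26.77, 17.55, 23.55 and 20.05 TPM at 16 dpp. In non-mutants it had 0.99, 1.53, 1.48, 0.75 and 2.15 TPM, then 9.91, 11.48, 7.56, 13.28 and 11.71 TPM, then 35.08, 26.36, 20.07, 40.02 and 52.33 TPM. Ages did not overlap in either class. Its steps were 1.99 and then 0.96 in mutants (SE 0.21 each, adjusted p = 4.27e-08 and 0.00258), and 2.32 and then 1.55 in non-mutants (SE 0.21 each, adjusted p = 7.27e-09 and 3.19e-06). The ratio of the 16 dpp mean to the 8 dpp mean was 11.1 in mutants and 25.2 in non-mutants. For Ccdc155 the same ratio was 6.79 in mutants and 15.1 in non-mutants.

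Cdk2, the kinase that Speedy A activates, was abundant at every age and changed by small amounts. It averaged 108.5 ± 10.8, 129.7 ± 4.53 and 135.4 ± 6.19 TPM at 8, 12 and 16 dpp in mutants, and 110.2 ± 7.64, 131.0 ± 5.99 and 138.7 ± 13.2 TPM in non-mutants (SD, n = 5 each). The rise to 12 dpp was 0.26 in mutants (SE 0.0683, adjusted p = 0.00444) and 0.25 in non-mutants (SE 0.0683, adjusted p = 0.00595). With libraries rescaled to a common median ratio the non-mutant step was 0.14 and no longer passed (adjusted p = 0.0969). The step to 16 dpp was 0.06 in mutants (adjusted p = 0.633) and 0.08 in non-mutants (adjusted p = 0.445); rescaled, the non-mutant value was 0.18 and passed (adjusted p = 0.0463), as did that of Sun1 at 0.33 (adjusted p = 0.00297).

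**Figure D2:**
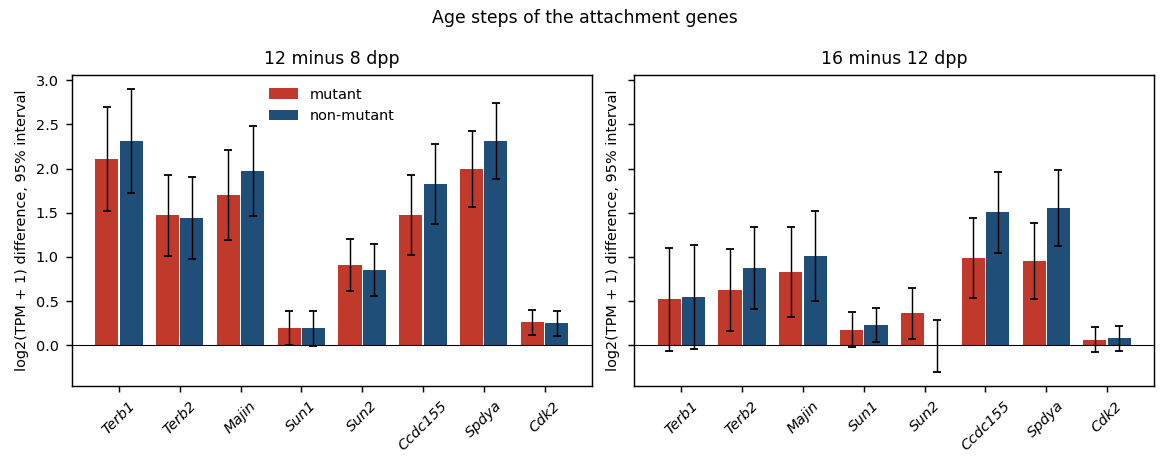
Difference in log2(TPM + 1) between ages (y axis) for each attachment gene (x axis), 12 minus 8 dpp on the left and 16 minus 12 dpp on the right. Bars are limma estimates in mutants (red) and non-mutants (blue) with 95% intervals; the first step is between 1.44 and 2.32 for the telomere-binding genes, Ccdc155 and Spdya, and the second is between 0.52 and 1.55 for them.

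Counted together, 7 of 8 members rose between 8 and 12 dpp in mutants and 7 of 8 in non-mutants, each time all but Sun1. Among all 20021 rows tested 17.5% rose in mutants (3496 rose and 2452 fell) and 20.3% in non-mutants (4067 rose and 2430 fell). With libraries rescaled to a common median ratio these splits were 2815 and 3124 in mutants and 2845 and 3464 in non-mutants. Between 12 and 16 dpp Majin, Ccdc155 and Spdya rose in mutants, where 6.21% of all rows rose, and the same 3 with Terb2 rose in non-mutants, where 8.88% rose (1777 rose and 2595 fell, and 2623 and 1573 when rescaled). The median member changed by 1.47 in mutants and 1.63 in non-mutants at the first step, against 0.06 and 0.09 for all rows, and by 0.57 in mutants and 0.71 in non-mutants at the second, against -0.004 and -0.09. A set of 6 members had no overlap between 12 and 8 dpp in mutants (Terb1, Majin, Sun2, Ccdc155, Spdya and Cdk2), where 9.25% of rows lay wholly higher, and 6 in non-mutants (Terb2 in place of Cdk2), where 13% did. Between 16 and 12 dpp 3 members lay wholly higher in mutants and 4 in non-mutants, the same members that passed the test, beside 6.69% and 6.18% of all rows. The steps share the 12 dpp libraries.

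Without litter 13 the same members were called, 7 and 7 at the first step and 3 in mutants and 4 in non-mutants at the second, and the same members lay wholly higher. The step that moved most was that of Terb1 in non-mutants, by 0.10 on the log2 scale. With the Prdm9+/- libraries alone as non-mutants 7 were called at the first step and 5 at the second, Sun1 being the one gained. With the Prdm9+/+ libraries alone as non-mutants 4 were called at the first step and 1, Spdya, at the second, with 1 library at 12 dpp. The summed level of Ddx4 and Dazl also climbed, between 196.7 and 498.9 TPM at 8 dpp, 418.2 and 537.0 TPM at 12 dpp and 499.4 and 695.1 TPM at 16 dpp in mutants, and between 195.2 and 373.6, 445.6 and 541.2, and 606.4 and 738.7 TPM in non-mutants. Its part in the result was not tested, and in libraries of mixed cells fewer cells of a type and less RNA per cell cannot be told apart. At 8 dpp the library with the most germ cell marker RNA, Prdm9-/- replicate 1 with 498.9 TPM, was also the highest in Terb1, Terb2, Majin and Ccdc155.

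Mutants and non-mutants were next compared at each age. At 8 and 12 dpp limma called 0 of 8 members and 0 of 20021 rows (0.0% at each age), with 417 rows at 8 dpp and 225 at 12 dpp under an unadjusted p of 0.05 and no member among them. A p that misses the threshold does not show equal levels, and the 95% intervals set the bound. For the abundant genes they were narrow, -0.15 to 0.13 for Cdk2 and -0.17 to 0.22 for Sun1 at 12 dpp. For Terb1 the interval at 12 dpp was -0.62 to 0.55, and for Spdya -0.45 to 0.41. Ccdc155 averaged 8.77 ± 2.0 TPM in mutants and 9.31 ± 1.85 TPM in non-mutants at 12 dpp (SD, n = 5 each). Without litter 13 the 12 dpp values of Terb1 and Terb2 turned sign, at 0.05 and -0.02 in place of -0.03 and 0.03, and again no member was called.

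At 16 dpp the largest differences were in Spdya, Ccdc155 and Sun2, and none of them passed the test with all libraries (limma, 0 of 8 members, beside 3.26% of all rows). These 3 members were among 2473 of the 20021 rows tested that had an unadjusted p under 0.05. The share of rows called rests in part on a few libraries: 653 rows were called in all, 382 without Prdm9+/- replicate 2 and 366 without Prdm9+/- replicate 3. In the order of litters 2, 4, 5, 6 and 7, Ccdc155 had 17.50, 16.66, 17.82, 17.89 and 20.08 TPM in the mutants, against 22.51, 21.36, 21.69, 36.84 and 43.48 TPM in their litter mates. Every mutant was below every non-mutant, which held for 2.28% of all rows. The mutants spanned a narrow range, while 2 Prdm9+/- animals, from litters 6 and 7, stood far above the other 3 non-mutants. The difference was -0.61 (SE 0.222, 95% interval -1.06 to -0.15, adjusted p = 0.184).

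Spdya, in the same order of litters, had 19.28, 26.77, 17.55, 23.55 and 20.05 TPM in the mutants, against 20.07, 35.08, 26.36, 40.02 and 52.33 TPM in their litter mates. The mutant was the lower of each pair, by little in litter 2 and by the most in litter 7, and the classes overlapped through the Prdm9+/- animal of litter 2. The difference was -0.62 (SE 0.21, 95% interval -1.05 to -0.18, adjusted p = 0.136). It passed without that animal, Prdm9+/- replicate 1 (-0.79, adjusted p = 0.0219).

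Sun2 went the other way, with 104.44, 107.01, 121.21, 110.46 and 126.11 TPM in the mutants, against 86.39, 84.52, 86.64, 95.56 and 102.48 TPM in their litter mates. Every mutant was above every non-mutant, as in 2.07% of all rows, and the ratio of the means was 1.25. The difference was 0.32 (SE 0.143, 95% interval 0.03 to 0.61, adjusted p = 0.345). Terb2 had 5.94, 6.09, 5.99, 6.47 and 6.77 TPM in the mutants, against 6.91, 7.14, 6.72, 8.27 and 8.19 TPM in their litter mates, so that 4 of 5 mutants were below every non-mutant. Its difference was small, -0.22 (95% interval -0.68 to 0.24, adjusted p = 0.751).

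The remaining 4 members overlapped between the classes at 16 dpp. For Majin this was through 1 animal, the Prdm9+/- of litter 2 at 12.28 TPM, with mutants at 10.76 to 14.25 TPM. Majin was lower in the mutant of 4 of 5 litters. Majin averaged 13 ± 1.37 TPM in mutants and 16.3 ± 3.53 TPM in non-mutants (SD, n = 5 each), a difference of -0.29 (95% interval -0.80 to 0.22). Terb1 differed by -0.07 (95% interval -0.65 to 0.52), Sun1 by -0.03 (95% interval -0.22 to 0.16) and Cdk2 by -0.03 (95% interval -0.17 to 0.11). The adjusted p was lowest for Majin, at 0.704.

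**Figure D3:**
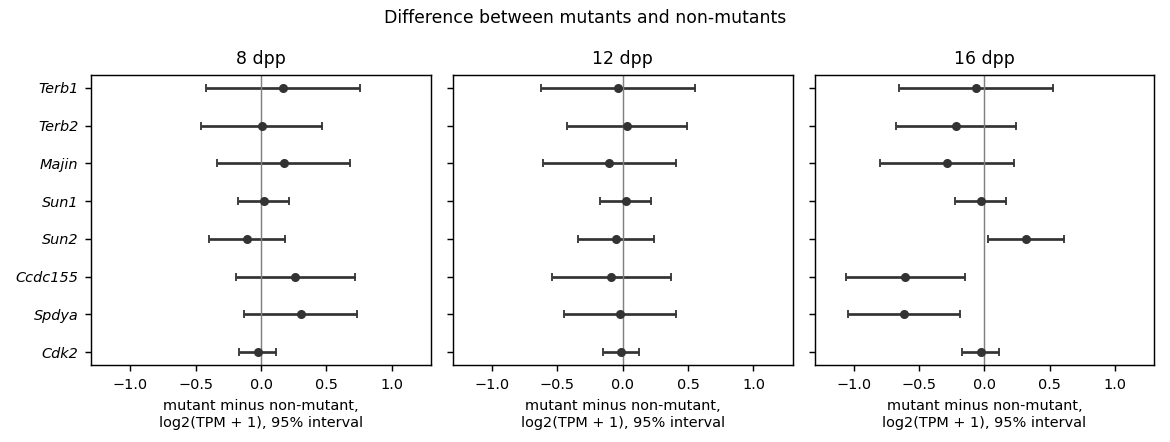
Mutant minus non-mutant difference in log2(TPM + 1) (x axis) for each attachment gene (y axis) at 8, 12 and 16 dpp. Points are limma estimates and bars 95% intervals over 5 libraries a class; at 16 dpp Ccdc155 and Spdya lie below 0 and Sun2 above 0 with intervals that leave out 0, though no adjusted p is under 0.05.

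Litter mates were set side by side because the table's header names each animal's litter. At 16 dpp Ccdc155, Spdya and Terb2 were lower in the mutant of 5 of 5 litters, as were 5.85% of all rows. Sun2 was higher in the mutant of 5 of 5 litters, as were 15.2% of all rows. With litter as a fixed block in the 16 dpp libraries alone Sun2 passed (0.32, SE 0.0518, adjusted p = 0.0215), and Ccdc155 and Spdya came near the threshold (adjusted p = 0.0523 and 0.0763). With litter as a random block in the fit of all libraries Spdya passed (-0.62, SE 0.174, adjusted p = 0.0309), and Ccdc155 and Sun2 did not (adjusted p = 0.0628 and 0.129). The calls on Sun2 and Spdya differed between the 3 fits, Ccdc155 missed the threshold in each, and the log2 differences were the same.

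**Figure D4:**
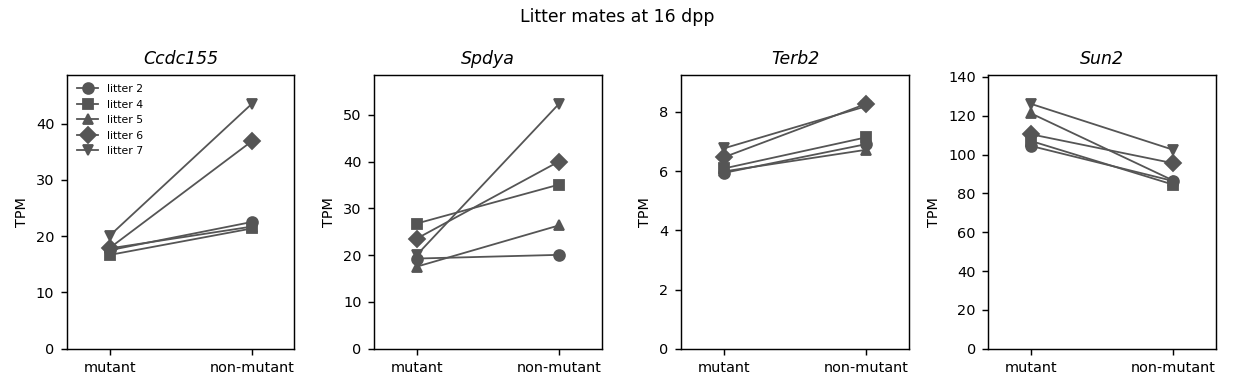
TPM (y axis, from 0) of Ccdc155, Spdya, Terb2 and Sun2 at 16 dpp in the mutant (left) and non-mutant (right) of each litter. Each line joins litter mates, with a symbol for each of 5 litters; lines for Ccdc155, Spdya and Terb2 run upward to the non-mutant, those for Sun2 downward.

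Markers of pachytene spermatocytes, the stage after chromosomes have paired, also differed between the classes at 16 dpp. The summed level of the 8 markers at 16 dpp was 118.7 to 157.5 TPM in mutants, against 246.4 to 1294 TPM in non-mutants, and 6 of the 7 markers tested were lower in mutants. Mybl1 was the one not called (limma adjusted p = 0.649). The same sum was already 58.4 to 71.0 TPM in mutants and 60.8 to 71.9 TPM in non-mutants at 8 dpp. In 16 dpp mutants Hspa2 averaged 99.4 TPM and Mybl1 26.6 TPM, while Piwil1 averaged 3.29, Adam2 1.82, Cetn1 0.648 and Spag6l 0.494 TPM. Ldhc, the germ cell lactate dehydrogenase, averaged 4.53 ± 1.17 TPM in mutants and 287.8 ± 234.8 TPM in non-mutants (SD, n = 5 each; log2 difference -5.21, adjusted p = 1.43e-09). None of the 8 markers was at 0 in all libraries of a class. The non-mutants with the most marker RNA, Prdm9+/- replicates 2 and 3 with 1026 and 1294 TPM, were the ones highest in Ccdc155 and Spdya. Without both, a comparison added after the data were seen, Ccdc155 differed by -0.27 (95% interval -0.74 to 0.21, adjusted p = 0.916), Spdya by -0.31 (95% interval -0.76 to 0.14, adjusted p = 0.892) and Sun2 by 0.40 (95% interval 0.05 to 0.74, adjusted p = 0.617). The libraries left out were the highest non-mutants in each of these genes, so the direction of each change was fixed by the choice. Their mutant litter mates were kept. Against the Prdm9+/+ libraries alone, which are 2 animals from litters 4 and 5 set against the mutants of all 5 litters, Ccdc155 differed by -0.25 and Spdya by -0.50. The Sertoli cell markers summed to 1165 to 1317 TPM in mutants and 1112 to 1282 TPM in non-mutants, and Ddx4 and Dazl to 499.4 to 695.1 TPM in mutants and 606.4 to 738.7 TPM in non-mutants. Of these 2 germ cell markers Ddx4, an RNA helicase, was lower in mutants than in non-mutants (log2 difference -0.61, limma adjusted p = 0.0276). Dazl had a difference of -0.001 (adjusted p = 0.998). From 12 to 16 dpp Ddx4 changed by 0.07 in mutants (adjusted p = 0.842) and by 0.67 in non-mutants (adjusted p = 0.00334). The summed markers of 3 further cell types were higher in the mutant of 5 of 5 litters, as Sun2 was. The 5 Leydig cell markers summed to 155.0 to 468.0 TPM in mutants and 93.5 to 353.3 TPM in non-mutants. Of these 5 Star alone had a lower mean in mutants, 19.4 TPM against 21.3 TPM. The 5 macrophage and leukocyte markers summed to 66.7 to 128.4 TPM in mutants and 42.7 to 93.7 TPM in non-mutants. The 4 erythroid markers summed to 188.8 to 715.9 TPM in mutants and 91.9 to 460.1 TPM in non-mutants. No gene of these 3 lists was called (median log2 differences 0.69, 0.56 and 1.03, beside 0.07 for all rows), and none was at 0 in all libraries of a class. The part of these markers in the result was not tested.

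**Figure D5:**
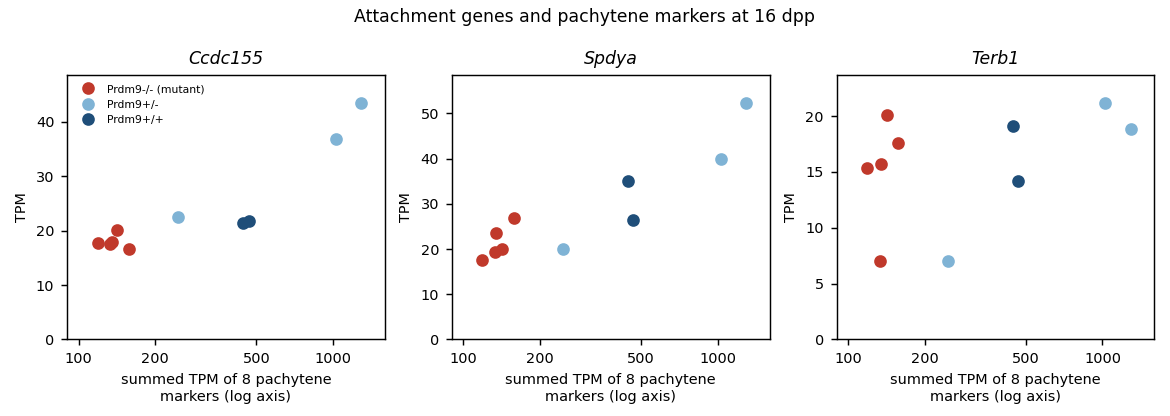
TPM (y axis, from 0) of Ccdc155, Spdya and Terb1 in each 16 dpp library against the summed TPM of 8 pachytene markers (x axis, log scale), in Prdm9-/- (red), Prdm9+/- (light blue) and Prdm9+/+ (dark blue) animals. The mutants lie between 118.7 and 157.5 TPM of marker RNA; the Prdm9+/- libraries at 1026 and 1294 TPM have the most Ccdc155 and Spdya, while Terb1 of 4 mutants lies among the non-mutants.

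Whether the step to 16 dpp differed between the classes was tested directly. No member passed (limma, 0 of 8, beside 1.35% of all rows, with no member under an unadjusted p of 0.05). The largest differences of the steps, mutant minus non-mutant, were -0.59 for Spdya (SE 0.297, 95% interval -1.20 to 0.02, adjusted p = 0.706), -0.52 for Ccdc155 (SE 0.314, 95% interval -1.16 to 0.12, adjusted p = 0.827) and 0.37 for Sun2 (SE 0.202, 95% interval -0.04 to 0.78, adjusted p = 0.771). For Terb1 the difference of the steps was -0.03 (95% interval -0.86 to 0.80). Without litter 13 it was -0.58 for Spdya, -0.52 for Ccdc155 and 0.32 for Sun2.

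Prdm9+/- and Prdm9+/+ animals were compared over 15 libraries with age as a factor, to see how far the pooled non-mutants differ among themselves. No litter held both of these genotypes, so genotype and litter cannot be told apart in this comparison. Limma called 0 of 8 members and 0 of 18668 rows (0.0%), with 1972 of the 18668 under an unadjusted p of 0.05. Sun2, Sun1 and Terb2 were among those rows, at 0.32, 0.24 and 0.41 in Prdm9+/- over Prdm9+/+ (log2, adjusted p = 0.393 each). At 16 dpp Sun1 had 118.81, 124.77 and 122.02 TPM in the 3 Prdm9+/- animals, against 100.92 and 92.84 TPM in the 2 Prdm9+/+ animals.

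The lower 5 members also varied together within groups. Over the 30 libraries, the deviations of log2(TPM + 1) from the mean of the library's class and age had Pearson correlations between 0.558 and 0.813 in the 10 pairs of Terb1, Terb2, Majin, Ccdc155 and Spdya. The highest was that of Majin with Spdya. Sun2 had correlations of -0.076 to 0.291 with the other 7. Sun1 went with Ccdc155 at 0.733. Without litter 13 these values were 0.555 to 0.812, -0.037 to 0.321 and 0.735 over 28 libraries. These libraries share their litters and their mix of cells, so the values describe this set of libraries and carry no test.

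The rows most like each member over all 30 libraries were then listed, by Pearson r of log2(TPM + 1) among 13822 rows with a usable symbol. These r values pool the ages, so any rows that change alike with age score high. Among the members, Terb1 with Sun2 had 0.843 on this scale but 0.082 as deviations from group means, and Majin with Spdya 0.981 and 0.813. For Terb1 they were Meioc (r = 0.968), Rad21l (0.966) and Rabgap1l (0.964), and for Terb2 Meioc, Tex101 and Zfp541 (0.97 each). Majin lay closest to Ly6k and Sycp3 (0.989 each) and to Sycp2 (0.986). Ccdc155 lay closest to Dmrtc2 (0.992), Tesmin (0.984) and Tsga10 (0.983), and Spdya to Tsga10 (0.988), Tesmin (0.986) and Iqcb1 (0.983). Sun2 lay closest to Fam84a (0.954), Ivd (0.944) and Ric3 (0.943), Sun1 to Ap1m1 (0.922), Stk25 (0.908) and Agpat1 (0.906), and Cdk2 to Wdr47 (0.902), Primpol (0.901) and Pdxdc1 (0.90). The number of rows over 0.9 was 568 for Ccdc155, 532 for Majin, 506 for Spdya, 393 for Terb1, 320 for Terb2 and 118 for Sun2, but 5 for Sun1 and 2 for Cdk2. Without litter 13 the correlation of each named row moved by at most 0.012, and 15 of the 24 were still among the 3 most like rows of their member.

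Genes that work beside the members were read from lists by function. Beside their counts, 17.5% of all rows rose and 12.2% fell at the first step in mutants, and 20.3% rose and 12.1% fell in non-mutants. At the second step 6.21% rose and 5.89% fell in mutants, and 8.88% rose and 13% fell in non-mutants. Of 8 shelterin and telomere genes, 2 rose between 8 and 12 dpp in mutants and 3 in non-mutants. Fbxo47, an F-box protein that mouse spermatocytes need to keep telomeres attached, reached 15.6 ± 4.33 TPM at 12 dpp, against 3.28 ± 1.54 TPM at 8 dpp in mutants (log2 change 1.97, adjusted p = 4.3e-08), and 15.2 ± 3.3 TPM, against 3.55 ± 1.42 TPM in non-mutants (1.86, adjusted p = 1.3e-07). Tinf2, a core shelterin subunit, rose by 0.79 in mutants and 0.87 in non-mutants. The median of the shelterin list was 0.15 in mutants and 0.21 in non-mutants, beside 0.06 and 0.09 for all rows. Fbxo47 was the one of the 8 that rose again by 16 dpp in both classes, by 0.65 in mutants (adjusted p = 0.0398) and 0.63 in non-mutants (adjusted p = 0.0302). At 16 dpp no gene of this list was called between mutants and non-mutants.

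The other SUN, KASH and lamina genes moved in mixed directions, with 12 of 14 tested. Between 8 and 12 dpp 1 rose and 2 fell in mutants, and 3 rose and 2 fell in non-mutants, with medians of -0.13 in mutants and -0.01 in non-mutants. Lmnb1, the gene of lamin B1, fell by 0.62 in mutants (adjusted p = 1.71e-06) and by 0.56 in non-mutants. Syne3, which encodes nesprin-3, rose by 0.50 in mutants (adjusted p = 0.000951) and 0.40 in non-mutants (adjusted p = 0.00663). Syne2, which encodes nesprin-2, fell between 12 and 16 dpp by 0.55 in mutants (adjusted p = 0.0248) and by 0.66 in non-mutants (adjusted p = 0.00422). Of 10 dynein and dynactin genes, 1 fell between 8 and 12 dpp in mutants, and 2 rose and 1 fell in non-mutants; the one that fell in both was Nde1, a dynein regulator, by 0.57 in mutants and 0.50 in non-mutants. The median of the dynein list was 0.08 in mutants and 0.01 in non-mutants. At 16 dpp neither list had a gene called between the classes.

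Among the partners and inhibitors of CDK2, 10 of 11 were tested. At the first step 4 rose and 2 fell in mutants, and 6 rose and 2 fell in non-mutants. Ccne2, the gene of cyclin E2, rose by 0.93 in mutants (adjusted p = 0.000406) and 1.21 in non-mutants (adjusted p = 1.63e-05), whereas Cdk1, the mitotic kinase, fell by 0.91 in mutants and by 0.98 in non-mutants. At the second step 5 rose and 0 fell in each class. Cdk1 was among those that rose, by 0.555 in mutants (limma adjusted p = 0.00214) and 0.656 in non-mutants (adjusted p = 0.000181). Cntd1, a cyclin-like factor that mouse meiosis needs to complete crossovers, was the one gene of these lists called at 16 dpp. It averaged 27.1 ± 4.6 TPM in mutants and 61.2 ± 21.3 TPM in non-mutants (SD, n = 5 each; log2 difference -1.10, SE 0.204, adjusted p = 0.000719). The median of the CDK2 list at 16 dpp was -0.04, beside 0.07 for all rows.

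All 8 genes of the chromosome axis and synaptonemal complex rose between 8 and 12 dpp in mutants and in non-mutants, and the same 4, Sycp1, Sycp2, Sycp3 and Hormad1, rose again by 16 dpp in both classes. Sycp3, an axis protein, had 50.2 ± 24.7, 183.0 ± 44.1 and 362.3 ± 72.5 TPM at 8, 12 and 16 dpp in mutants and 51.0 ± 17.8, 198.3 ± 44.8 and 426.0 ± 54.9 TPM in non-mutants (SD, n = 5 each). At 16 dpp 0 of 8 were called between the classes and their median difference was -0.10, beside 0.07 for all rows and -0.14 for the 8 attachment genes. Without litter 13 every count of this list was the same. In the 4 lists before it, no gene named above lost a call and no gene was gained. At the first step 1 gene of the shelterin list, 2 of the SUN, KASH and lamina list, 1 of the dynein list and 1 of the CDK2 list lost a call in non-mutants, and 1 of the SUN, KASH and lamina list and 1 of the CDK2 list in mutants. At the second step 1 gene each of the SUN, KASH and lamina list, the dynein list and the CDK2 list lost a call in non-mutants and 1 of the CDK2 list in mutants.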

How the data were processed

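Polyadenylated RNA of 30 libraries was sequenced after enzyme digestion of tubules and washing away of interstitial cells, per the labels' protocols. The authors deposited estimates in TPM per gene. The submitters' processing notes name the build mm10 (GRCm38) and the tools RSEM 1.2.8 and Bowtie 1.0.0, without role or order. Sequencing depth cannot be read from TPM, so no counting interval is given and the precision comes from the spread between animals. The table held ends inside its NONCODE identifiers, and 3.23 to 3.95% of each library's TPM lies outside it. GENCODE M21 gave names and positions for 37709 of 38906 Ensembl rows.

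Rows over 1 TPM in at least 5 libraries (20021) were tested with limma-trend (limma 3.58.1, R 4.3.3) on log2(TPM + 1), in 1 fit of 6 groups without a block. Prdm9+/- was set against Prdm9+/+ over 18668 rows. A row was called where its Benjamini-Hochberg p, adjusted over every row tested, was under 0.05. Fold changes understate the change of low genes on this scale. The fit was also run on simulated data, whose outcome is not reported here and on which no result rests. Alternatives were another pseudocount (0.1), other filters, median-ratio scaling, litter as a block, other sets of libraries and each library left out.

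The table's header names each animal's litter, so litter mates are paired. Deviations from group means correlated in 17 pairs of litter mates at a median of 0.22 (0.0628 to 0.39, over 0.1 in 13 pairs), against a median of -0.0836 between litters of the same age. Replicate numbers pair nothing.

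The members and all lists were chosen with earlier results of these data known. Beside the members, genes named are up to 4 called genes a list and comparison, by smallest adjusted p, and the 3 rows most like each member. Lists are described by counts and medians with no set test.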

Additional observations from a re-analysis of the deposited data

Results flagged for a closer look

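Each member was checked in each class and age for a library standing apart from the other 4, by the gap to its nearest neighbour as a share of the whole range. Of 48 groups, 2 had such a library, and chance alone marks about 1 in 20 groups.

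Majin in mutants at 12 dpp had its lowest library, Prdm9-/- replicate 2, at 3.26 TPM, with the next at 7.48 TPM. The gap was 0.783 of the range, above the critical value of 0.71. That library, from litter 9, was also the lowest mutant of its age in Terb1 (5.81 TPM), Terb2 (1.68 TPM), Ccdc155 (5.39 TPM), Spdya (6.58 TPM), Sun1 (79.62 TPM) and Cdk2 (122.25 TPM). Among the 12 dpp mutants it had the lowest sum of the germ cell markers Ddx4 and Dazl (418.2 TPM) and the highest sums of erythroid (488.9 TPM), Leydig (333.6 TPM) and macrophage and leukocyte markers (78.6 TPM). The part of these markers in the result was not tested.

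Cdk2 in mutants at 16 dpp had its lowest library, Prdm9-/- replicate 5, at 124.53 TPM, with the next at 136.64 TPM. The gap was 0.806 of the range, above the same critical value of 0.71.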

How the results depend on the processing

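Each of 9 comparisons was recomputed under 11 other settings and without each of 30 libraries in turn. Of 2710 values of members, 2584 kept direction and side of the threshold, 16 lost a call, 16 gained one and 94 changed sign; no sign changed among the 820 values that were called. The cause of the changes was not tested.

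With litter as a fixed replicate block or as a random replicate block (consensus correlation 0.2936) 1 member was called at 16 dpp in place of 0, and no other count of members changed. In the 16 dpp libraries alone 752 of 17761 rows were called with the fixed block and 405 with no block. In the fit of all libraries 1103 rows were called at 16 dpp with the random block and 653 without it, and with the random block the difference of the steps had 447 in place of 270. A random litter effect was not run for Prdm9+/- against Prdm9+/+ because its correlation could not be estimated.

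With Prdm9+/+ alone as non-mutants 4 members were called in place of 7 at the first step and 1 in place of 4 at the second. Signs changed in mutants against non-mutants for Sun2 at 8 dpp (0.034), for Terb1 (0.12), Majin (0.025), Sun2 (0.36), Ccdc155 (0.28), Spdya (0.068) and Cdk2 (0.095) at 12 dpp, for Sun1 (0.17) and Cdk2 (0.080) at 16 dpp, and for the non-mutant steps of Sun1 to 12 dpp (-0.0915) and Sun2 to 16 dpp (0.31). Rows called were 4 and 1 in place of 0 at 8 and 12 dpp, 169 at 16 dpp, 1300 in place of 6497 and 366 in place of 4372 at the non-mutant steps, and 62 for the difference of the steps.

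With Prdm9+/- alone signs changed for Terb1 (-0.041), Terb2 (-0.38), Sun1 (-0.019) and Cdk2 (0.018) at 8 dpp, Terb2 (-0.059) and Sun1 (-0.054) at 12 dpp, Terb1 at 16 dpp (0.012) and the difference of the steps of Terb1 (0.084). At the second non-mutant step 5 members were called, Sun1 in addition (adjusted p = 0.0402). Rows called were 3488 and 2556 at the non-mutant steps and 166 for the difference of the steps.

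Without Prdm9+/- replicates 2 and 3 of 16 dpp, a setting chosen after seeing the data, 2 members were called in place of 4 at the second non-mutant step, Terb2 (adjusted p = 0.0635) and Majin (adjusted p = 0.0674) losing their calls. Signs changed at 16 dpp for Terb1 (0.19) and Sun1 (0.069), in the difference of the steps for Terb1 (0.22), Sun1 (0.047) and Cdk2 (0.013), and in Prdm9+/- against Prdm9+/+ for Terb1 (-0.0655), Majin (-0.024) and Spdya (-0.10). Rows called were 191 at 16 dpp, 1808 at that step and 79 for the difference.

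With median-ratio scaling signs changed for Terb2 (-0.013) and Sun1 (-0.014) at 8 dpp, Sun2 at the second non-mutant step (0.092) and Cdk2 in Prdm9+/- against Prdm9+/+ (-0.026). It moved the median of all rows by under 0.1 in each comparison. With a pseudocount of 0.1 Terb2 at 8 dpp was -0.053, the difference of the steps had 168 rows, and Terb2 in non-mutants (adjusted p = 0.0674) and Majin in mutants (adjusted p = 0.103) lost the second step. Without a filter Majin lost that call too (adjusted p = 0.0616), and 1181 and 416 rows were called at 16 dpp and for the difference. In the libraries of 1 age alone 1 row was called at 12 dpp. Without litter 13 Terb1 (0.051) and Terb2 (-0.0202) changed sign at 12 dpp, where 1 row was called.

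Leaving out 1 library at a time, 0 to 1 members were called at 16 dpp. Log2 values that changed sign, mutant against non-mutant, ranged at 8 dpp from -0.065 to 0.31 for Terb1, -0.18 to 0.19 for Terb2, -0.019 to 0.35 for Majin, -0.025 to 0.062 for Sun1 and -0.067 to 0.021 for Cdk2. At 12 dpp they ranged from -0.13 to 0.13 for Terb1, -0.11 to 0.24 for Terb2, -0.26 to 0.11 for Majin, -0.054 to 0.089 for Sun1, -0.15 to 0.036 for Sun2, -0.18 to 0.059 for Ccdc155, -0.13 to 0.13 for Spdya and -0.041 to 0.0073 for Cdk2. At 16 dpp they ranged from -0.32 to 0.17 for Terb1, -0.095 to 0.011 for Sun1 and -0.089 to 0.0021 for Cdk2. The difference of the steps ranged from -0.28 to 0.20 for Terb1, -0.12 to 0.024 for Sun1 and -0.0755 to 0.016 for Cdk2, the second non-mutant step from -0.11 to 0.078 for Sun2, and Prdm9+/- against Prdm9+/+ from -0.031 to 0.28 for Terb1 and -0.086 to 0.30 for Majin. The difference of the steps had 121 rows without Prdm9+/- replicate 2 of 16 dpp and 132 without replicate 3, without which the second non-mutant step had 2886. For Prdm9+/- against Prdm9+/+ 1 row was called without Prdm9+/+ replicate 1 of 8 dpp and 3 without Prdm9+/+ replicate 2 of 16 dpp.

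Depth is unknown, so no counting error can be given for the low levels at 8 dpp, where Terb1, Terb2, Majin, Ccdc155 and Spdya averaged 0.762 to 2.65 TPM.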

Other observations

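Terb1 in litter 2 was picked out after its values were seen. Both 16 dpp animals of that litter had about the same low level, 7.0 TPM in the mutant and 7.05 TPM in the Prdm9+/- animal, while the 8 other 16 dpp libraries had 14.15 to 21.18 TPM. Both litter 2 libraries lay below the 8 others in 350 of 20021 rows (1.75%), and below 50% of the lowest of the 8 in 14 rows (0.0699%). Terb2 in the same animals had 5.94 TPM in the mutant and 6.91 TPM in the Prdm9+/- animal, close to the other libraries of their classes.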
